A study of Zea mays with 9 samples.

Results

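Starch is assembled in the maize endosperm by starch synthases, branching enzymes and a debranching enzyme, and the genes of 8 of these proteins are described here. They are defined by identifier: the starch synthase genes wx1 (Zm00001d045462), ss1 (Zm00001d045261), su2 (Zm00001d037234) and du1 (Zm00001d000002), the branching enzyme genes sbe1 (Zm00001d014844), sbe2a (Zm00001d003817) and ae1 (Zm00001d016684), and the debranching enzyme gene su1 (Zm00001d049753). All 8 of the 46430 gene identifiers were found in every library, and all 8 passed the filter on low counts, which kept 23529 genes. The pairing of symbol and identifier came with the choice of the genes, as the gene table used here held none of the 8 identifiers.

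The libraries held poly(A) RNA of endosperm at 19 days after pollination (DAP), from field-grown plants that had been selfed. Of the 9 libraries, 3 came from thk1-iso15 (-/-), 3 from thk1-iso17 (-/-) and 3 from WT, and the labels give the strain of all 9 as B73. Both mutants carry alleles of thk1, thick aleurone1, which encodes a NOT1 scaffold protein of the CCR4-NOT complex that shortens poly(A) tails of mRNA. Mutant kernels are known for additional layers of aleurone, which is the outermost cell layer of this tissue. The number of plants or kernels behind a replicate is not stated in the labels, so p-values measure the spread between these libraries only. thk1 itself and markers of aleurone, starchy endosperm, transfer layer and embryo cells were not analysed here, because 0 of 33 marker symbols could be paired with an identifier of the files.

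As background, starch synthases extend glucose chains from ADP-glucose, branching enzymes cut chains and rejoin them as side branches, and isoamylase-type debranching enzymes trim misplaced branches so that amylopectin can pack into a granule. Amylose, the nearly linear part of starch, is made by the granule-bound synthase encoded by wx1 (waxy1). In maize most kernel starch lies in the starchy endosperm, the tissue beneath the aleurone. The classical kernel mutants waxy, sugary, dull and amylose extender are named for what their loss does to the texture or the starch of the kernel. In RNA of whole endosperm, fewer starch-storing cells and less RNA per cell cannot be told apart.

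Library depth ranged between 21871601 and 76651742 gene counts in the mutants, and between 24024943 and 72288973 in WT. Among the libraries, thk1-iso17 replicate 3 stood apart with 8.27% of its entries not aligned, against 1.62% to 2.54% in the others. A second, thk1-iso15 replicate 3, had 27.0% of its entries not uniquely aligned, against 16.8% to 22.6% in the others, and 52.9% of them counted to genes, against 59.2% to 66.5%. Leaving out either library ended none of the calls of the 8 genes. Levels are CPM, that is, counts brought to a common library total, scaled with TMM factors, which set the bulk of genes equal between libraries. These factors lay between 0.946 and 1.21 in the mutants, all above those of WT, which lay between 0.785 and 0.926. Levels per total gene counts are therefore also given for main statements that the scaling changes. Where no scale is named, levels and their overlap are in TMM-scaled CPM.

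The transcripts of su2, du1, sbe1, ae1 and su1 fell in both mutants. In thk1-iso15, 5 of the 8 genes were lower than in WT (edgeR quasi-likelihood test, Benjamini-Hochberg adjusted p under 0.05 over 23529 genes), and none was higher. Among all genes tested 6.82% were lower and 15.5% changed in either direction. In thk1-iso17 the same 5 genes were lower and none higher, where 6.29% of all genes were lower and 14.2% changed. With both alleles set against WT these 5 were called again, where 21.0% of all genes changed and 2357 of 23529 were lower. The calls of su2, sbe1 and ae1 also held when libraries were scaled by total gene counts alone, and those of du1 and su1 did not. The remaining 3 genes, wx1, ss1 and sbe2a, passed in no comparison. Both alleles were compared with the same 3 WT libraries, so the calls of the alleles are not independent of each other. Without WT replicate 1, 3 of the 8 genes were lower in each allele. Lower calls over all genes also fell, from 1604 of 23529 to 624 of 24186 in thk1-iso15 and from 1479 to 581 in thk1-iso17. With both alleles against WT, 5 of the 8 were still lower without that library, with 1203 lower calls over all genes. The cause of these losses was not tested.

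**Figure D1:**
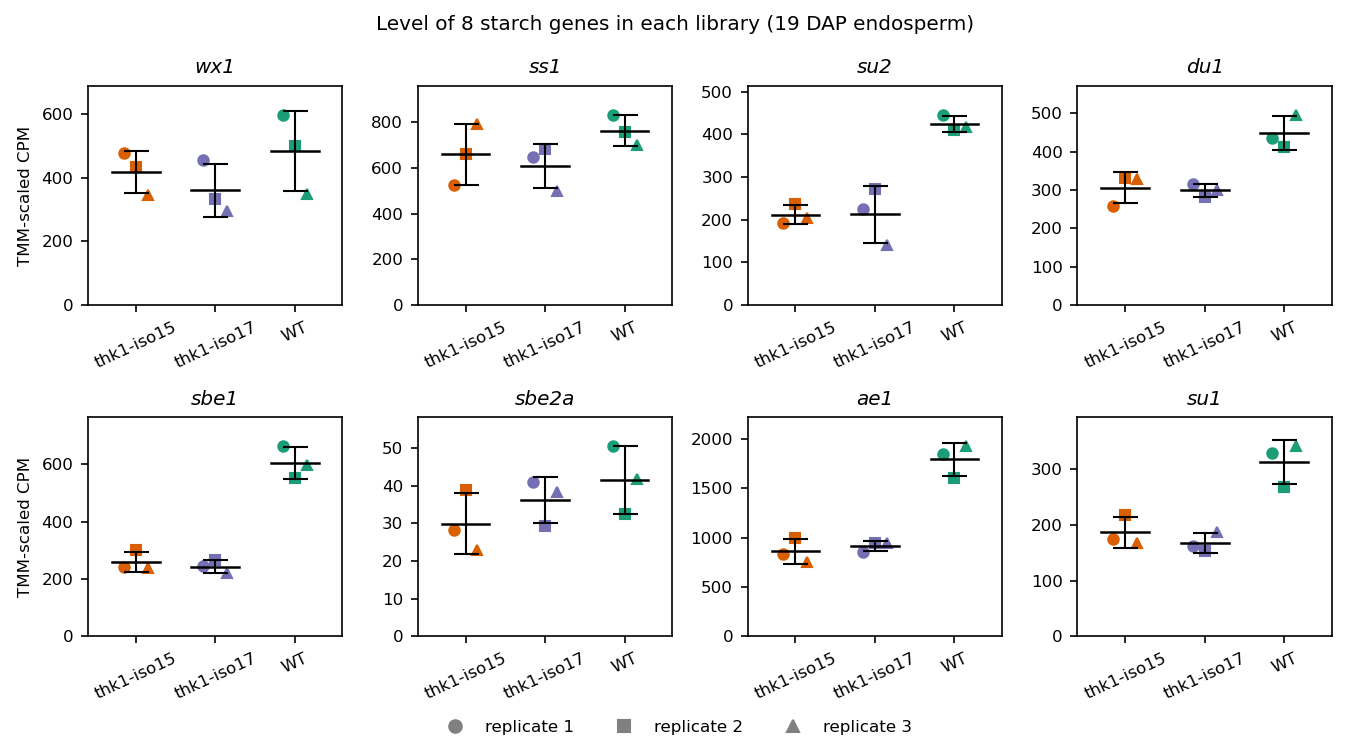
TMM-scaled CPM of each gene (vertical axes, from 0, with a range of its own for each gene) in thk1-iso15, thk1-iso17 and WT, with 1 point per library, its shape giving the replicate, and bars for mean ± SD (n = 3). For su2, du1, sbe1, ae1 and su1 all 6 mutant points lie below all 3 WT points, while wx1, ss1 and sbe2a overlap with WT.

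Among the starch synthases, su2 (sugary2) encodes starch synthase IIa, which lengthens short amylopectin chains to intermediate ones. Its level was 193, 236 and 204 CPM in replicates 1, 2 and 3 of thk1-iso15 and 226, 271 and 140 CPM in those of thk1-iso17, against 446, 409 and 416 CPM in those of WT. Every mutant library lay well below every WT library. The lowest value, 140 CPM, was that of thk1-iso17 replicate 3, so this gene had a wide spread in that genotype, with 212 ± 66.5 CPM against 424 ± 19.6 CPM in WT (SD, n = 3 each). On the log2 scale su2 differed from WT by -1.01 ± 0.21 (SE, adjusted p = 0.0127 by edgeR) in thk1-iso15 and by -0.997 ± 0.21 (SE, adjusted p = 0.0134 by edgeR) in thk1-iso17. Without WT replicate 1 the call in thk1-iso17 was lost, at an edgeR adjusted p of 0.0501.

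The gene du1 (dull1) encodes starch synthase III, associated with the longer chains of amylopectin. It stood at 259, 331 and 328 CPM in thk1-iso15 and at 315, 282 and 299 CPM in thk1-iso17, against 436, 413 and 497 CPM in WT. In CPM the groups did not overlap, but the fold change was the smallest of the 5 genes called. Per total gene counts du1 overlapped, at 0.0284% to 0.0370% in the mutants and 0.0324% to 0.0460% in WT. Its log2 difference from WT came to -0.55 ± 0.15 (SE, adjusted p = 0.0304 by edgeR) in thk1-iso15 and -0.59 ± 0.15 (SE, adjusted p = 0.0258 by edgeR) in thk1-iso17. Leaving out single libraries ended these calls. In thk1-iso15 the edgeR adjusted p became 0.0747, 0.0559 or 0.103 when WT replicate 1, 2 or 3 was left out, and 0.105 or 0.0668 when its own replicate 1 or 2 was. In thk1-iso17 leaving out WT replicate 1 or 3 gave 0.0657 or 0.0917, and leaving out thk1-iso17 replicate 1 or 2 gave 0.0738 or 0.0640. With both alleles against WT, the log2 fold change was -0.57 ± 0.13 (SE, adjusted p = 0.0104 by edgeR), and the adjusted p was 0.0553 without WT replicate 3.

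The gene ss1 encodes starch synthase I, which makes the shortest amylopectin chains. Its level was 526, 661 and 794 CPM in thk1-iso15 and 647, 682 and 499 CPM in thk1-iso17, against 835, 757 and 700 CPM in WT. In thk1-iso15 one library exceeded 2 of the WT libraries, whereas all 3 thk1-iso17 libraries lay below WT, as they did in 17.4% of all genes. Per total gene counts thk1-iso17 overlapped with WT, at 0.0605% to 0.0760% against 0.0594% to 0.0721%. Neither difference passed the test. The log2 fold change was -0.21 (adjusted p = 0.473 by edgeR) in thk1-iso15, with a 95% interval between 65.0% and 115% of WT. It ranged between -0.36, without thk1-iso15 replicate 3, and -0.07, without thk1-iso15 replicate 1. In thk1-iso17 it was -0.33 (adjusted p = 0.267 by edgeR), with an interval between 60.0% and 106% of WT.

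The gene wx1, the source of amylose, had 476, 433 and 345 CPM in thk1-iso15 and 454, 333 and 294 CPM in thk1-iso17, against 598, 501 and 349 CPM in WT. Its spread within WT was the widest of the 8 genes relative to its mean, 482 ± 126 CPM (SD, n = 3), and the genotypes overlapped. The fitted log2 difference was -0.21 (adjusted p = 0.566 by edgeR) in thk1-iso15, with a 95% interval between 61.1% and 123% of WT. It ranged between -0.40, without WT replicate 3, and -0.03, without WT replicate 1. In thk1-iso17 it was -0.42 (adjusted p = 0.239 by edgeR), with an interval between 52.7% and 106%. The fitted falls of su2, sbe1 and ae1 lie outside all 4 of these intervals for ss1 and wx1, though smaller falls do not. These falls have errors of their own. In thk1-iso17 the intervals of su2, 36.2% to 69.3% of WT, and ae1, 39.9% to 65.7%, overlap those of ss1 and wx1. That of sbe1, 31.9% to 50.9%, does not. None of su2, sbe1 and ae1 was tested against ss1 or wx1 alone.

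Among the branching enzymes, ae1 (amylose extender1) encodes branching enzyme IIb, whose loss gives starch with long, sparsely branched chains, and it is known as the main form of the kernel. It stood at 833, 999 and 748 CPM in thk1-iso15 and at 857, 949 and 944 CPM in thk1-iso17, against 1840, 1606 and 1924 CPM in WT. The highest mutant library, thk1-iso15 replicate 2, thus remained far below the lowest WT library, replicate 2. Relative to WT, ae1 was lower by a log2 fold change of -1.06 ± 0.16 (SE, adjusted p = 0.00379 by edgeR) in thk1-iso15 and -0.97 ± 0.16 (SE, adjusted p = 0.00534 by edgeR) in thk1-iso17. With both alleles against WT, the mutant level was 49.6% of WT, with a 95% interval between 40.3% and 61.1%.

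The gene sbe1 encodes branching enzyme I and had the largest fall of the 8. It had 240.5, 301 and 240.2 CPM in thk1-iso15 and 245, 265 and 220.3 CPM in thk1-iso17, against 664, 551 and 599 CPM in WT. The 6 mutant libraries lay close together, at 252 ± 27.8 CPM (SD, n = 6), and none came near the WT mean of 605 ± 56.7 CPM (SD, n = 3). For sbe1 the log2 fold changes were -1.22 ± 0.15 (SE, adjusted p = 0.00164 by edgeR) in thk1-iso15 and -1.31 ± 0.15 (SE, adjusted p = 0.00132 by edgeR) in thk1-iso17. With both alleles against WT, sbe1 stood at 41.6% of WT, with a 95% interval between 34.4% and 50.5% (adjusted p = 0.000352 by edgeR).

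The gene sbe2a encodes branching enzyme IIa, a close relative of the ae1 product and known as the main form of leaves. Its level was 28.1, 38.7 and 22.8 CPM in thk1-iso15 and 41.0, 29.3 and 38.4 CPM in thk1-iso17, against 50.5, 32.5 and 41.7 CPM in WT. The genotypes overlapped throughout. The fitted log2 difference from WT was -0.47 (adjusted p = 0.172 by edgeR) in thk1-iso15, with a 95% interval between 51.2% and 101% of WT, and -0.19 (adjusted p = 0.594 by edgeR) in thk1-iso17, with an interval between 62.2% and 123%. With 1 library left out the value of thk1-iso17 ranged between -0.34 and -0.04. Between 676 and 3689 reads were counted for sbe2a per mutant library and between 1047 and 2064 per WT library, so counting error was small beside the spread between replicates.

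The debranching enzyme gene su1 (sugary1) encodes an isoamylase, whose loss leaves a soluble, highly branched glucan in place of part of the starch. It stood at 174, 218 and 167 CPM in thk1-iso15 and at 162, 152 and 187 CPM in thk1-iso17, against 329, 268 and 341 CPM in WT. The 6 mutant CPM values were all smaller than the smallest WT value. Per total gene counts su1 overlapped, at 0.0157% to 0.0227% in the mutants and 0.0210% to 0.0316% in WT. In log2 terms su1 differed from WT by -0.75 ± 0.16 (SE, adjusted p = 0.0133 by edgeR) in thk1-iso15 and by -0.90 ± 0.16 (SE, adjusted p = 0.00619 by edgeR) in thk1-iso17. Without WT replicate 1 the call in thk1-iso15 was lost, at an edgeR adjusted p of 0.0510.

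The scaling of the libraries decided some of these statements. When libraries were scaled by total gene counts alone, the median gene of all 23529 shifted upward in the mutants by 0.26 in thk1-iso15, 0.41 in thk1-iso17 and 0.33 with both alleles against WT, on the log2 scale. On that scale su2, sbe1 and ae1 were lower in both alleles, 3 of the 8 genes, where the share of all genes called lower came to 2.38% for thk1-iso15 and to 1.43% for thk1-iso17. For sbe1 the log2 fold change was -0.95 ± 0.17 (SE, adjusted p = 0.00473 by edgeR) in thk1-iso15 and -0.91 ± 0.17 (SE, adjusted p = 0.00398 by edgeR) in thk1-iso17. For ae1 it was -0.80 ± 0.19 (SE, adjusted p = 0.0170 by edgeR) in thk1-iso15 and -0.57 ± 0.19 (SE, adjusted p = 0.0498 by edgeR) in thk1-iso17. For su2 it was -0.74 ± 0.20 (SE, adjusted p = 0.0253 by edgeR) in thk1-iso15 and -0.61 ± 0.20 (SE, adjusted p = 0.0422 by edgeR) in thk1-iso17.

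The calls of du1 and su1 were lost when libraries were scaled by total gene counts. For du1 the log2 fold change became -0.30 (adjusted p = 0.248 by edgeR) in thk1-iso15 and -0.18 (adjusted p = 0.462 by edgeR) in thk1-iso17. For su1 it became -0.49 (adjusted p = 0.116 by edgeR) in thk1-iso15 and -0.50 (adjusted p = 0.0934 by edgeR) in thk1-iso17. The genes wx1 and ss1 then lay close to WT. Their log2 fold changes on that scale were 0.08 in thk1-iso15 and 0.00 in thk1-iso17 for wx1, and 0.04 in thk1-iso15 and 0.08 in thk1-iso17 for ss1, with edgeR adjusted p between 0.757 and 0.998. That of sbe2a was -0.21 in thk1-iso15 (adjusted p = 0.624 by edgeR) and 0.22 in thk1-iso17 (adjusted p = 0.571 by edgeR). The order of the genes by fold change was much the same on both scales, with sbe1, ae1 and su2 at the low end. This follows from the change of scale, which moves all genes by nearly the same amount.

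**Figure D2:**
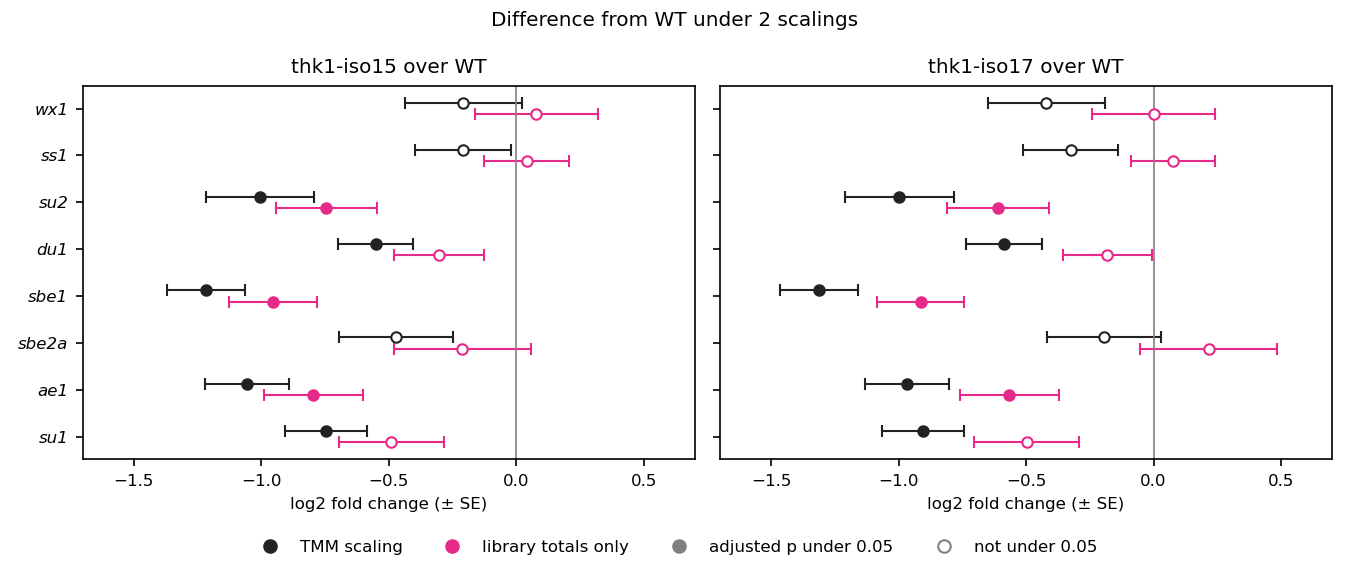
Log2 fold change of each gene (horizontal axis, ± SE) in thk1-iso15 and thk1-iso17 over WT, with TMM scaling in black and with library totals alone in pink, filled where the edgeR adjusted p was under 0.05. The change of scale moves all 8 genes to the right by nearly the same amount, and su2, sbe1 and ae1 stay called in both panels.

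The fall of these genes was set beside that of other genes. The 8 genes were chosen with earlier results of these data known, so their place among other genes is a description and not a test. The median log2 fold change of the 8 genes was -0.65 for thk1-iso15, -0.75 for thk1-iso17 and -0.70 with both alleles against WT. Over all genes tested it was 0.01, 0.02 and 0.02. A background of like level was also taken: the 3944 tested genes whose mean level lay between those of sbe2a and ae1, the lowest and highest of the 8. Their median was -0.13 with both alleles against WT, with quartiles at -0.36 and 0.12, and 19.2% of them were lower and 7.68% higher. Of these 3944 genes, 0.558% had a fold change at or below that of sbe1, 1.29% at or below that of ae1 and 1.34% at or below that of su2. For su1 the share was 3.47% and for du1 10.6%. The values of sbe2a, wx1 and ss1 lay within the middle of the distribution, with 27.5%, 29.1% and 34.6% of the genes at or below them.

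**Figure D3:**
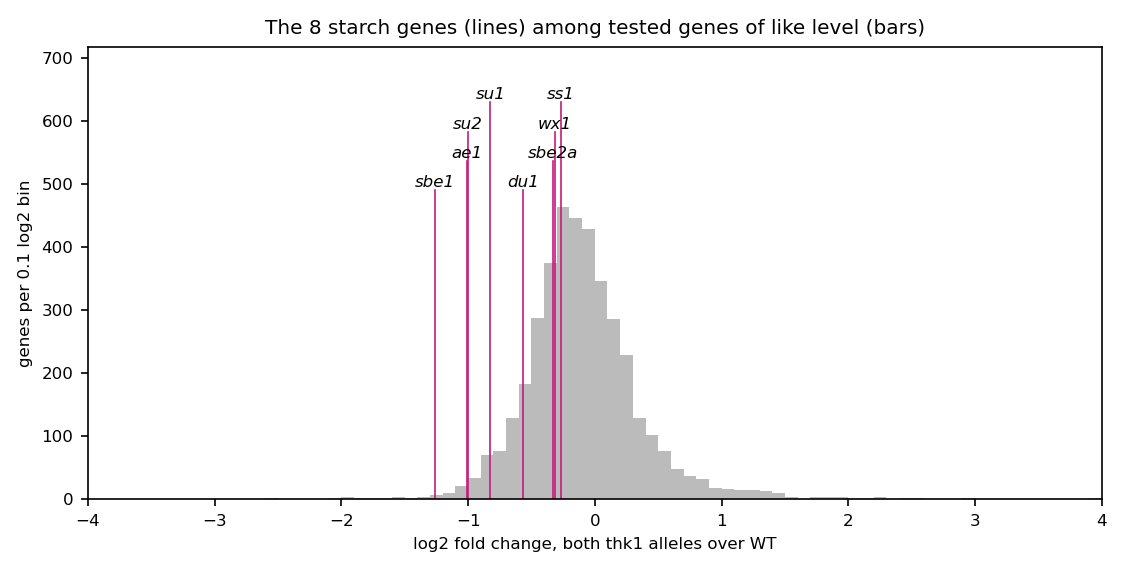
Number of genes (vertical axis) by log2 fold change of both thk1 alleles over WT (horizontal axis, bins of 0.1) for the 3944 tested genes within the level range of the 8 starch genes, shown as bars, with values beyond 4 drawn in the last bin. Vertical lines mark the 8 starch genes, with sbe1, ae1 and su2 in the lower tail and wx1, ss1 and sbe2a beside the peak.

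In 5 of the 8 genes each of the 6 mutant libraries had a lower CPM than each of the 3 WT libraries, which was also so in 11.7% of all genes tested. These were the same 5 genes as those called, and in no gene did the mutant libraries lie above WT, against 12.4% of all genes. Per total gene counts su2, sbe1 and ae1 kept this separation, while du1 and su1 overlapped with WT. The shares of 11.7% and 12.4% are for TMM-scaled CPM, and no such share was taken per total gene counts. Whether separation on that scale sets these genes apart from others is therefore not known.

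The alleles were also compared with each other. Of the 8 genes 0 differed between thk1-iso17 and thk1-iso15 (edgeR quasi-likelihood test), with 0 at an unadjusted p under 0.05 and 0 called by DESeq2 or voom. Among all genes tested 0.111% were called by edgeR, 0.583% by DESeq2 and 0.115% by voom. An unadjusted edgeR p under 0.05 was found in 1618 of 23529 genes. With shares this low, 0 of 8 does not set these genes apart from others. The log2 difference of thk1-iso17 over thk1-iso15 ranged between -0.21 in wx1 and 0.28 in sbe2a, with edgeR adjusted p between 0.859 and 0.997. For sbe1 the 95% interval placed thk1-iso17 between 74.3% and 118% of thk1-iso15, and for ae1 between 83.1% and 137%. For su2 the log2 interval reached from -0.45 to 0.47. The interval for du1 was 78.0% to 122% of thk1-iso15, and that for su1 was 70.4% to 114%. Each interval gives the differences that 3 libraries per allele leave possible for that gene, before any adjustment over all genes. It is not a limit of detection.

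The make-up of the starch gene counts was also set side by side. A share of the reads of the 8 genes does not depend on how libraries are scaled, though it depends on the length of each transcript and is compared here only between genotypes. The gene sbe1 held 8.71% ± 0.400 of these reads in the mutants (SD, n = 6) and 12.4% ± 0.327 in WT (SD, n = 3), without overlap. The gene ae1 held 26.3% to 36.0% in the mutants and 35.4% to 39.5% in WT, which overlapped through thk1-iso17 replicate 3. The gene ss1 held 19.0% to 27.9% in the mutants, above the 14.4% to 16.7% of every WT library. All synthases together held 53.2% ± 3.92 of the reads in the mutants and 43.6% ± 2.90 in WT, and all branching enzymes 40.7% ± 3.46 in the mutants and 50.03% ± 2.35 in WT (SD, n = 6 and 3). Not every mean lay on the side of its class: the synthase su2 held 7.29% ± 1.22 in the mutants and 8.72% ± 0.263 in WT, and the branching enzyme sbe2a held 0.801% to 1.46% in the mutants and 0.716% to 0.971% in WT, with overlap in both genes. Among the synthases the share differed most for ss1 and then wx1, with wx1 at 13.5% ± 2.51 in the mutants and 9.90% ± 2.38 in WT. Neither summed class overlapped between mutants and WT, while su1 held 6.13% ± 0.765 in the mutants and 6.42% ± 0.556 in WT. These shares are a description and were not tested, and each moves with the others, since they sum to the whole.

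**Figure D4:**
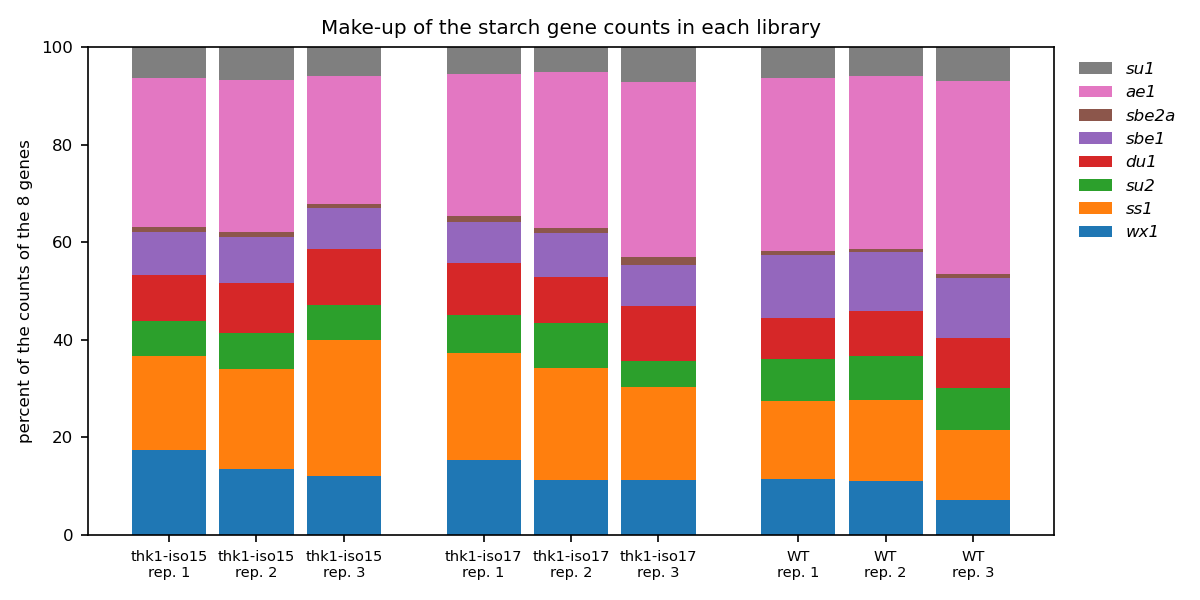
Share of each gene in the summed counts of the 8 genes (vertical axis, percent) for each library of thk1-iso15, thk1-iso17 and WT. The bands of sbe1 and, in most libraries, ae1 are narrower in the mutants than in WT, and that of ss1 is wider.

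Whether genes differed in their response was tested with 5 count ratios, each taken within a library and compared over 6 mutant and 3 WT libraries by a two-sided exact permutation test, with p adjusted over the 5. None passed. The smallest p that 6 against 3 libraries allow is 0.0238, and a single ratio at that value adjusts to 0.119, so the test could not call 1 ratio alone. For any call, several of the 5 ratios had to reach or come near that smallest p together. The lack of calls therefore does not show that the genes responded alike. The ratio of sbe2a to ae1, the leaf form over the kernel form of branching enzyme II, was higher in all 6 mutant libraries than in any WT library. Its mean log2 value was -4.77 ± 0.25 in the mutants and -5.45 ± 0.23 in WT (SD, n = 6 and 3), a 1.60-fold higher ratio (exact permutation p = 0.0238, adjusted 0.119). The ratio of sbe1 to ae1 had a mean log2 value of -1.82 ± 0.15 in the mutants and -1.57 ± 0.11 in WT, with overlap (exact permutation p = 0.0476, adjusted 0.119). The overlap came from thk1-iso15. All thk1-iso17 libraries, at -1.81, -1.84 and -2.10, lay below the WT libraries at -1.47, -1.54 and -1.68.

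The remaining 3 ratios overlapped with WT. That of su1 to ae1 had a log2 difference of 0.19 in mutants minus WT (exact permutation p = 0.119, adjusted 0.179). All 3 thk1-iso15 libraries, at -2.26, -2.20 and -2.16, stood above the WT libraries at -2.48, -2.58 and -2.50, while those of thk1-iso17, at -2.40, -2.64 and -2.34, did not. The difference between the alleles, thk1-iso17 minus thk1-iso15, was -0.25 for su1 over ae1 and -0.19 for sbe1 over ae1 (exact permutation p = 0.1 for each, the smallest that 3 against 3 libraries allow, not adjusted). The ratio of du1 to ss1 differed by -0.29 (exact permutation p = 0.143, adjusted 0.179). That of wx1 to the sum of ss1, su2 and du1 differed by 0.22 (exact permutation p = 0.381, adjusted 0.381).

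Summed over the 8 genes, the level was 2932 ± 255 CPM in thk1-iso15 and 2844 ± 192 CPM in thk1-iso17, against 4868 ± 330.2 CPM in WT (SD, n = 3 each). Per total gene counts the 8 genes took 0.302% ± 0.0331 of thk1-iso15, 0.323% ± 0.0207 of thk1-iso17 and 0.418% ± 0.0542 of WT libraries. The highest mutant library, thk1-iso17 replicate 1 at 0.346%, lay just below the lowest WT library, replicate 2 at 0.356%. As a share of all entries, those not assigned to genes included, the groups overlapped, at 0.143% to 0.224% in the mutants and 0.211% to 0.292% in WT. Per total gene counts the branching enzymes accounted for most of the difference, with 0.127% ± 0.0178 in the mutants (SD, n = 6) and 0.210% ± 0.0341 in WT (SD, n = 3). The 4 synthases took 0.166% ± 0.0152 in the mutants and 0.182% ± 0.0184 in WT, and their ranges overlapped, at 0.149% to 0.193% in the mutants and 0.163% to 0.200% in WT. With TMM scaling the synthases did not overlap, at 1233 to 1671 CPM in the mutants and 1962 to 2314 CPM in WT. No test was made on these sums, since they are scores over genes chosen with results known.

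The tested gene whose profile over the 9 libraries was nearest to that of sbe1, among 10682 genes of at least 10 CPM on average, was Zm00001d007113. It stood at 203 ± 10.7 CPM in thk1-iso15, 201 ± 8.13 CPM in thk1-iso17 and 485 ± 25.9 CPM in WT (SD, n = 3 each). Its root mean square difference from sbe1 was 0.10 on the log2 scale. For ae1 the nearest was Zm00001d026680, with 81.9 ± 4.89 CPM in thk1-iso15, 83.9 ± 3.96 CPM in thk1-iso17 and 166 ± 11.9 CPM in WT, and a difference of 0.0986. Within the 8 genes the nearest to sbe1 was ae1, at 0.17, and the nearest to ae1 was su1, at 0.16. Neither outside identifier is paired with a name in the sources used here.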

How the data were processed

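Each deposited file holds unnormalised counts by gene for 1 library, and its 5 summary lines entered neither gene totals nor tests. They entered only the shares of all entries of a library. Per the submitters' processing notes, reads were handled with the genome build B73 RefGen_v4 and with HTSeq 0.11.1, StringTie 1.3.6, HISAT2 2.1.0 and SAMtools 1.9. Annotation, settings and strand use: not given in the sources used here. Therefore reads shared with near-identical copies, overlapping genes or antisense genes remain uncertain. Entries not uniquely aligned made up 16.8% to 27.0% of a library.

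The model was fitted with edgeR 4.0.16 under R 4.3.3: filterByExpr by genotype, TMM factors and one quasi-likelihood model (glmQLFit, glmQLFTest) of 3 genotypes over 9 libraries. P-values were adjusted by Benjamini-Hochberg over 23529 genes and called under 0.05. Standard errors were derived from the fold change and its F statistic, and 95% intervals use the model's t quantile. The script was tested on simulated data. Replicates differed by more than sampling noise (chi-square per degree of freedom 38.2 to 151).

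Alternatives were other scalings, DESeq2 1.42.0, voom in limma 3.58.1, other filters, the 2 groups alone, a replicate block and leaving out each library. The members and lists were chosen with earlier results of these data known. All 8 genes are named, and for the pair with the largest mean change the nearest other gene by profile. Of 34 symbols of other starch pathway genes, 0 could be paired with an identifier, so none is given. The RefSeq gene table (Zm-B73-REFERENCE-NAM-5.0) held 0 of 44146 nuclear identifiers of the files.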

Additional observations from a re-analysis of the deposited data

How the results depend on the processing

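The count of 5 starch genes lower than in WT stayed at 5 in all comparisons with WT under RLE factors, upper quartile factors, TMM factors without the 100 most abundant genes, DESeq2, voom, either other filter, a replicate block and, where run, the 2 groups alone. Under these settings 4.49% to 7.94% of all genes were lower in thk1-iso15 and 4.07% to 7.43% in thk1-iso17. With both alleles against WT the share was 6.70% to 11.3%. It was 3 in each of these comparisons with library totals alone, a scaling chosen after the data were seen. With 1 library left out it was 3 to 5 for each allele and 4 to 5 with both. The 3 came without WT replicate 1, where lower calls over all genes fell too. Between the alleles it was 0 throughout. The calls of sbe1 and ae1 against WT held under every alternative run, and that of su2 held in all but 1, thk1-iso17 without WT replicate 1.

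With library totals alone, values that passed no test changed sign against WT: wx1 had log2 fold changes of 0.0785 in thk1-iso15, 0.00112 in thk1-iso17 and 0.0398 in both, ss1 0.0414, 0.0765 and 0.0589, and sbe2a 0.217 in thk1-iso17 and 0.00284 in both. Between the alleles they became 0.0351 for ss1, 0.123 for du1 and 0.0410 for sbe1. For su2 that difference was -0.0391 by voom and -0.0222 with the replicate block. With 1 library left out the differences between the alleles ranged between -0.209 and 0.233 for su2, -0.142 and 0.0262 for du1, -0.166 and 0.0199 for sbe1, and -0.256 and 0.0394 for ss1. The construction of the scaling accounts for the first set, and the cause of the others was not tested.

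The 5 count ratios kept their direction with 1 library left out. The replicate block changes only the p-value, so it leaves the direction as it was. With a WT library left out no ratio could have passed, as the smallest possible permutation p then exceeds 0.05. With a mutant library left out or with the block, several ratios at once had to reach or come near the smallest p. The lowest adjusted p with 1 library left out was 0.0893 (exact permutation). Unchanged non-calls therefore do not bear on robustness. Without 1 library the log2 differences of the ratios ranged between 0.587 and 0.806 for sbe2a over ae1, -0.311 and -0.196 for sbe1 over ae1, 0.155 and 0.25 for su1 over ae1, -0.375 and -0.153 for du1 over ss1, and 0.0161 and 0.360 for wx1 over the other synthases. Same-numbered libraries of different genotypes did not deviate together throughout (correlations of -0.113 to 0.240 over 9 pairs, and of -0.233 to 0.117 over 18 pairs with different numbers), and not every library correlated best with its own number. The labels do not say what a shared number means, so the numbers are not taken to pair the samples. For wx1, however, replicate 1 had the highest CPM and replicate 3 the lowest in each genotype. Every mutant library also lay below the WT library of its number in CPM. Per total gene counts neither order held throughout. Replicate 1 stood at 0.0523% in thk1-iso15 and 0.0516% in WT, and thk1-iso17 at 0.0343% in replicate 2 and 0.0357% in replicate 3. The replicate block changed no call of the 8 genes, though for wx1 it lowered the SE with both alleles to 0.11, against 0.20 without it (edgeR adjusted p = 0.0843).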
